A study of Mus musculus with 12 samples.

Results

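A set of 47 cell cycle and DNA replication genes was followed in white adipose tissue of mice kept in the cold. The set was named by symbol: 13 genes of replication (the Mcm2 to Mcm7 helicase, its loaders, Pcna and the enzymes of nucleotide supply), 8 genes that control G1 and entry into S phase, and 26 genes of mitosis. Each gene was represented by its brightest probe set among those annotated to that gene alone and above log2 4 on at least 3 arrays, and 43 of the 47 genes had such a probe set, among 12855 genes tested in all. Tk1, Ttk and Kif20a did not reach that level, and no probe set named Ccnb1 alone in the annotation used.

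Affymetrix arrays measured total RNA of male C57/BL6 mice, 6 to 8 weeks old per the labels, in 4 groups of 3 arrays. The cold groups spent 1 or 5 weeks at 4 °C, and each had a control group of the same week. The sample titles place the controls at 30 °C and the source names at room temperature, so the control temperature is not settled here. Per the protocol text, which is the same for all samples, mice came from 22 °C and spent 1 to 3 weeks at 18 °C before the move to 4 °C; whether the controls also passed through 18 °C is not stated. The labels name neither the fat depot nor whether each array held 1 animal, so p-values measure the spread between arrays, which may be technical. All groups share the strain and sex, and no transgene or drug is listed.

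Replication is licensed in G1, when Cdc6 and its partners load the Mcm2 to Mcm7 ring on DNA, and the ring unwinds DNA together with the GINS complex once S phase starts. D-type cyclins with Cdk4, then E-type cyclins with Cdk2, release E2F factors that switch on the replication genes. Cyclin A and B with Cdk1 drive mitosis, and many mitotic genes are held down outside the cycle through a short promoter element called the CHR and rely on CCAAT boxes. In adipose tissue the cycling cells are mainly progenitor, endothelial and immune cells, while mature adipocytes rarely divide.

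Promoters are shown here because the members fall into classes with known elements upstream. RefSeq held a window of 250 bases before the annotated start for 37 of the 47 members (build GRCm38.p6; the window listed first for a gene was used). The letters TTTCCCGC, TTTCGCGC, TTTGCCGC and TTTGGCGC were searched for E2F, TTTGAA for the CHR and CCAAT for the CCAAT box, each on both strands; E2F words could overlap one another and did so in Mcm5 and Mcm6. An E2F word lay in 6 of the 37 windows (16.2%), against 3.32% of the 10323 windows of tested genes. A CHR word lay in 8 (21.6%, against 10.8%) and a CCAAT word in 27 (73.0%, against 35.8%). By class, an E2F word was found for 4 of 11 replication genes and 1 of 21 mitotic genes, a CHR word for 1 of 11 and 7 of 21, and a CCAAT word for 8 of 11 and 18 of 21. A match describes letters only; no binding was measured, and a missing word says nothing about a factor. Windows of 2 replication genes with E2F words (Mcm5, Mcm6) and 4 mitotic genes with CHR words (Cdk1, which also has an E2F word, Ube2c, Mki67 and Top2a) are printed 5′ to 3′ on the gene's strand, with E2F and CHR words in capitals:
Mcm5, chr8:75109259-75109508, plus strand: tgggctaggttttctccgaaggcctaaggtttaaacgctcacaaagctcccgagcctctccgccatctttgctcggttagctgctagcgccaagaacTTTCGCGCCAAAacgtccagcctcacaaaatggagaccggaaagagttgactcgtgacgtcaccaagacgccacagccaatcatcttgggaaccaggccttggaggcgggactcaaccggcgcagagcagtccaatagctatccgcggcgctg
Mcm6, chr1:128359706-128359955, minus strand: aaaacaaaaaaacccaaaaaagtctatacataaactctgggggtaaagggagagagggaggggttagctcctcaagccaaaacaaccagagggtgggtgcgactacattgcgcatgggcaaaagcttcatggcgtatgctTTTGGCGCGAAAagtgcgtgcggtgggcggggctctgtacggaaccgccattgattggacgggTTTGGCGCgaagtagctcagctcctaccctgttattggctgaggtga
Cdk1, chr10:69352913-69353162, minus strand: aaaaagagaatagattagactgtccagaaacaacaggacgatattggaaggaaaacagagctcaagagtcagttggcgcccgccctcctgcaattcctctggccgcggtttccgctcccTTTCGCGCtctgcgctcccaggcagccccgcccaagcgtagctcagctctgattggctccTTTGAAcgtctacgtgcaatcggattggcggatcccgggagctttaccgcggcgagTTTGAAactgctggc
Ube2c, chr2:164769679-164769928, plus strand: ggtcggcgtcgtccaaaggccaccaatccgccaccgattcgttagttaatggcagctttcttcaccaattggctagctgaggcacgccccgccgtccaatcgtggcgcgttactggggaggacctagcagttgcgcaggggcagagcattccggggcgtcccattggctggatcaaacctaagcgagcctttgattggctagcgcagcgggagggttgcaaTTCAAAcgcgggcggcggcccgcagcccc
Mki67, chr7:135716380-135716629, minus strand: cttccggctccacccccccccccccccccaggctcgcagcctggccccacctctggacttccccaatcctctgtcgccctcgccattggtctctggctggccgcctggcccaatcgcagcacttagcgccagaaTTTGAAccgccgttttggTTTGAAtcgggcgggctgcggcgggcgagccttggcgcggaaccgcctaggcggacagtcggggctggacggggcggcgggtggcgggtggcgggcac
Top2a, chr11:99024190-99024439, minus strand: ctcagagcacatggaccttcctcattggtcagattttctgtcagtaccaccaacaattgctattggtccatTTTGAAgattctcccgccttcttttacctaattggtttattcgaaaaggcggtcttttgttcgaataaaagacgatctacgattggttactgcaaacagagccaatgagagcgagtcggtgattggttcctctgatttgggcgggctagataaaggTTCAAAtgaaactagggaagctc

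The arrays were even in overall level, with medians of 4.79 to 4.89 over all probe sets, and no 2 were identical. Markers of white adipocytes were high on every array (10 of 12 listed genes tested, mean log2 signal 12.41 to 13.13), and the 7 tested brown or beige markers rose at both times. Other array differences ran with the groups. The signal of the 3′ minus the 5′ Gapdh control probe set, a sign of RNA integrity, was 0.90, 3.00 and 3.12 on the 1-week controls, -0.08 to 0.34 on the 1-week cold arrays, -0.08 to 0.03 on the 5-week controls, and 0.96, 0.19 and 3.01 on the 5-week cold arrays. The same measure for beta-actin was 1.84 to 2.80 on the 5-week cold arrays and 1.01 to 1.35 on the other 9. Skeletal muscle transcripts averaged 8.44 to 8.75 on the 5-week controls and 9.85 on replicate 2 of the 1-week cold group, against 4.96 to 5.87 on the other 8 arrays. The 3 controls of 5 weeks were closer to each other than the arrays of any other group (median SD over probe sets 0.093, against 0.132 to 0.156).

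At 1 week of cold, 17 of the 43 members fell, 2 rose and 24 did not pass the test (limma, Benjamini-Hochberg adjusted p under 0.05 over all genes). The share that fell, 39.5%, stood beside 31.6% of all genes tested, and 4.65% rose against 17.9%. In either direction 49.5% of all genes changed. The members were chosen with earlier results of these data known, so shares set beside all genes are descriptive. The members' median log2 difference, cold minus control, was -0.36, against -0.08 over all genes. All 3 cold arrays lay below all 3 controls for 15 members (34.9%, against 33.7% of all genes), close to the background, and above them for 5, against 26% of all genes. In RNA from whole tissue, fewer cells of a type and less RNA per cell cannot be told apart. With each array centred on its median, 11 members fell and 8 rose. Of all genes 56.1% then changed, 63.9% of them upward, and the median over all genes moved from -0.08 to 0.14. The members' median relative to all genes, -0.28, is the same under centring by construction, and it was -0.09 without control replicate 3. Without control replicates 2 and 3, whose Gapdh difference was high, 5 members passed: Mcm4, Mcm5, Bub1 and Mki67 were lower and E2f1 higher; the controls are then 1 array, assumed to vary like the other groups.

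At 5 weeks 24 of the 43 members fell and none rose, with 0 above control even at an unadjusted limma p under 0.05. That is 55.8% lower, against 21.2% of all genes tested, while 15% of all genes rose and 36.2% changed in either direction. With the members chosen after earlier results of these data, the excess over all genes is not an independent test. The median difference was -0.51, against -0.03 over all genes, and the 3 cold arrays lay below the 3 controls for 27 members (62.8%, against 30.7%). The reverse held for 4 members, Tyms, E2f1, Bub1b and Kif23, and for 28.3% of all genes. Centring the arrays left 17 members lower and 2 higher, Tyms and Bub1b, while 41.7% of all genes changed, 66.6% of them upward. Counting the closely matched controls as 1 sample left 7 falls, in Mcm6, Pcna, Ccnd1, Ccnd2, Ccna2, Ube2c and Birc5. With the beta-actin 3′ minus 5′ difference as a covariate 0 members passed in limma, while 6.18% of all genes did. Even so, 11 members were lower at an unadjusted p under 0.05 and the median was -0.55. Counting the controls as 1 sample limits the calls of every gene, and both settings were chosen after seeing the data.

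Of the 17 members that fell at 1 week and the 24 at 5 weeks, 12 fell at both: Mcm3, Mcm5, Mcm6, Pcna, Rrm2, Ccnd2, Cdk4, Birc5, Bub1, Kif11, Nusap1 and Top2a. The test was passed downward at 1 week alone by Mcm2, Mcm4, Mcm7, Cenpe and Mki67, and at 5 weeks alone by 11, among them Cdk1, Ccna2, Ccnd1 and Ube2c. Ccne1 and Ccnd3 were the members that rose at 1 week, and Ccnd3 fell at 5. A further 13 passed at neither time, and 33 of the 43 had negative differences at both. Over all 12855 genes tested, 31.6% fell at 1 week and 21.2% at 5 weeks. Differences were negative for 7181 of all genes at 1 week and 6770 at 5, and for 36 of the 43 members at each time. How many of all genes did so at both times was not counted, so these overlaps have no background beside them. Passing at a single time does not show that the effects differ; that difference was tested directly and is given after the members.

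**Figure D1:**
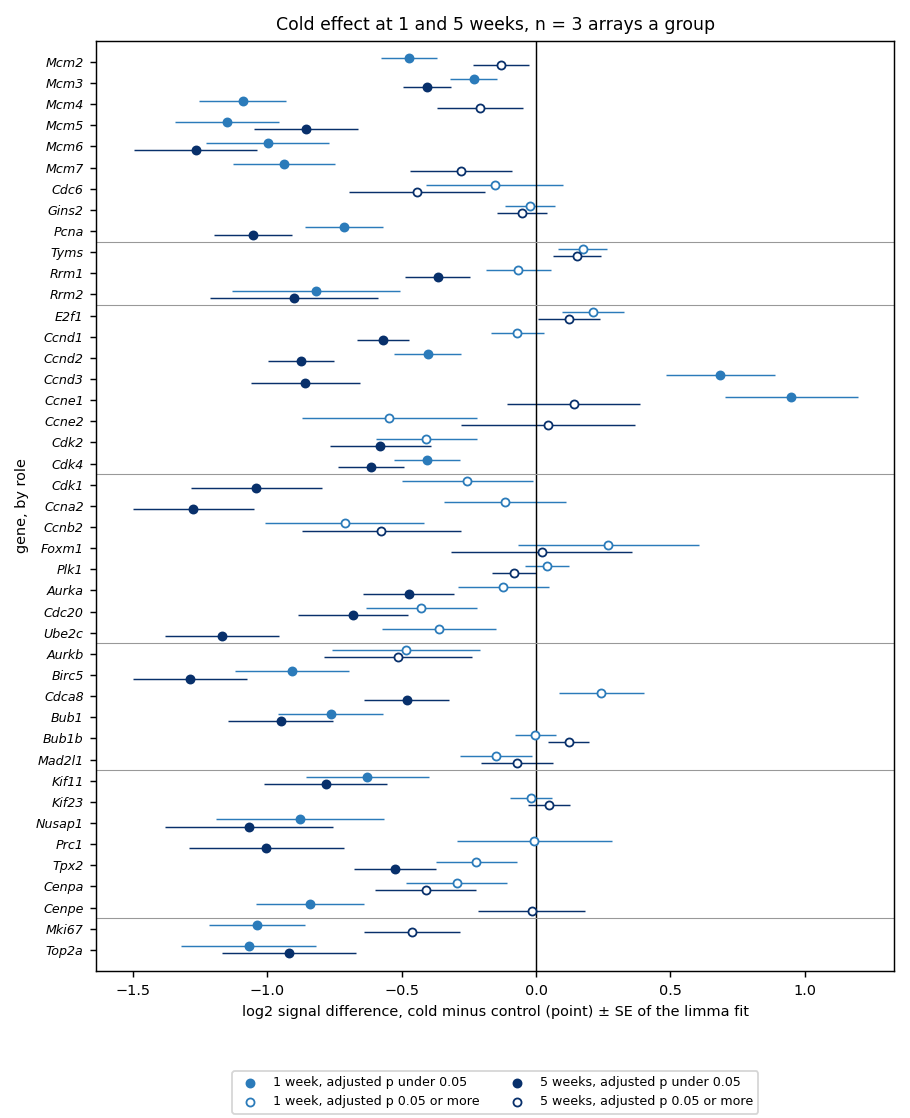
Log2 signal difference, cold minus control (x axis), for the 43 tested members ordered by role (y axis); points are differences of 3-array means, bars the standard error of the limma fit, light blue 1 week, dark blue 5 weeks, filled where the adjusted p was under 0.05. Filled points lie left of 0 for 17 genes at 1 week and 24 at 5 weeks, and right of 0 for Ccne1 and Ccnd3 at 1 week.

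**Figure D2:**
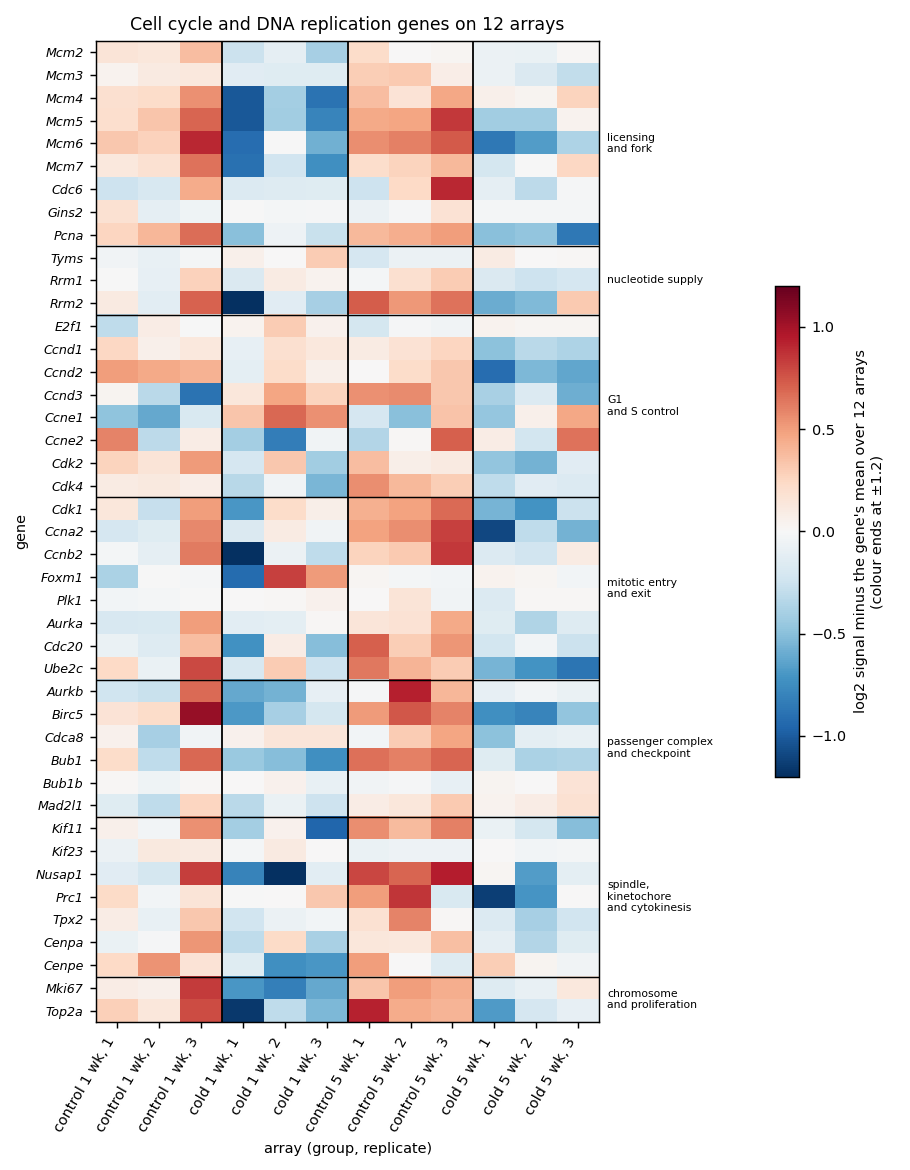
Log2 signal of each of the 43 tested members (rows, grouped by role) on the 12 arrays (columns), minus the gene's mean over the arrays; red is above and blue below that mean, and colours end at ±1.2. Cold columns are mostly blue and 5-week control columns mostly red, with replicate 3 the reddest of the 1-week controls.

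Among the 9 licensing and fork genes, 7 fell at 1 week (Mcm2 to Mcm7 and Pcna) and 4 at 5 weeks (Mcm3, Mcm5, Mcm6 and Pcna). These shares, 77.8% and 44.4%, stood beside 31.6% and 21.2% of all genes tested. Cdc6, which loads the helicase, and Gins2, a subunit of the GINS complex, passed at neither time. Mcm4, a helicase subunit, had log2 signals of 9.33, 9.37 and 9.69 on the 1-week control arrays, 8.12, 8.74 and 8.25 on the 1-week cold arrays, 9.51, 9.30 and 9.61 on the 5-week control arrays and 9.20, 9.18 and 9.42 on the 5-week cold arrays. The 1-week cold arrays lay apart from and below the other 9, and the 5-week groups overlapped. Mcm4 was 2.13-fold lower at 1 week, a log2 difference of -1.09 (SE 0.16, adjusted p = 0.00027). At 5 weeks its difference was -0.21 (SE 0.16, adjusted p = 0.341). Mcm5, another subunit of the ring, had log2 signals of 9.25, 9.39 and 9.75 on the 1-week control arrays, 8.03, 8.64 and 8.26 on the 1-week cold arrays, 9.50, 9.53 and 9.90 on the 5-week control arrays and 8.64, 8.63 and 9.10 on the 5-week cold arrays. Cold and control arrays did not overlap at either time. The log2 differences of Mcm5 were -1.15 (SE 0.19, adjusted p = 0.000611) at 1 week, 2.22-fold lower, and -0.86 (SE 0.19, adjusted p = 0.00547) at 5 weeks, 1.81-fold lower.

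Mcm7 gave log2 signals of 10.07, 10.12 and 10.60 on the 1-week control arrays, 9.05, 9.71 and 9.21 on the 1-week cold arrays, 10.15, 10.21 and 10.33 on the 5-week control arrays and 9.73, 9.94 and 10.19 on the 5-week cold arrays. Its cold arrays were below the controls at 1 week and overlapped them at 5. Mcm7 fell 1.92-fold at 1 week (-0.94 (SE 0.19, adjusted p = 0.00187) on the log2 scale), and at 5 weeks the difference was -0.28 (SE 0.19, adjusted p = 0.277). Pcna, the clamp that holds DNA polymerase on its template, had log2 signals of 11.54, 11.69 and 11.96 on the 1-week control arrays, 10.79, 11.23 and 11.02 on the 1-week cold arrays, 11.68, 11.72 and 11.79 on the 5-week control arrays and 10.79, 10.82 and 10.43 on the 5-week cold arrays. Each cold group was entirely below its controls, and the controls of the 2 weeks overlapped. Pcna was 1.64-fold lower at 1 week (-0.71 (SE 0.15, adjusted p = 0.00201)) and 2.07-fold lower at 5 weeks (-1.05 (SE 0.15, adjusted p = 0.00027)). The other subunits kept the same sign. Mcm6 fell from 9.93 ± 0.35 to 8.93 ± 0.46 at 1 week and from 10.07 ± 0.09 to 8.80 ± 0.25 at 5 weeks (log2 mean ± SD, n = 3). Mcm2 changed by -0.47 (SE 0.10, adjusted p = 0.00301) at 1 week and Mcm3 by -0.41 (SE 0.09, adjusted p = 0.00438) at 5 weeks; the 1-week fall of Mcm3, -0.23 (adjusted p = 0.0469), was kept in 6 of 24 alternative settings.

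Probe sets of the same helicase gene differed in size, so the pattern between subunits depends on the probe set. The 6 genes had 16 probe sets above log2 4, of which 11 fell at 1 week, in all 6 genes, and 10 at 5 weeks, in all but Mcm4 (adjusted over 22378 probe sets, of which 27.2% and 20% fell). For Mcm2 the brightest set gave -0.13 at 5 weeks and the other -1.99 (adjusted p = 0.000942). For Mcm7 the sets gave -0.28, -0.93, -0.81 and -0.06 at 5 weeks, and the middle pair passed. The second Mcm4 set gave -0.96 at 1 week and -0.56 at 5 weeks (adjusted p = 0.0584). Over all 43 members, 79 probe sets were tested; 26 fell and 3 rose at 1 week (32.9% lower; 18.5% of all probe sets rose), and 43 fell and 0 rose at 5 weeks (54.4% lower; 13.1% of all rose). The kept sets of Mcm3, Mcm4, Mcm5, Rrm2, Ccnd2 and Cdc20 carry the array maker's suffix _x_at, which marks probes that can match other transcripts.

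**Figure D3:**
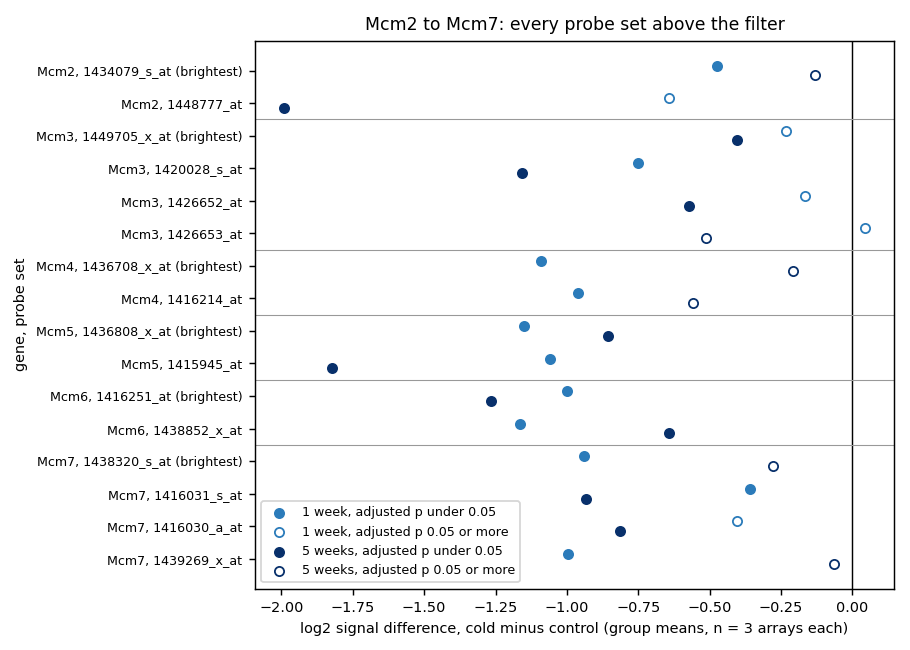
Log2 signal difference, cold minus control (x axis), of each of the 16 probe sets of Mcm2 to Mcm7 above the filter (y axis; brightest set marked), light blue at 1 week and dark blue at 5 weeks, filled where the adjusted p over all probe sets was under 0.05. All points lie below 0 except that of 1 Mcm3 set at 1 week, and sets of Mcm2 and Mcm7 are spread widely at 5 weeks.

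Of the 3 tested genes of nucleotide supply, Rrm2 fell at both times, Rrm1 at 5 weeks and Tyms at neither. That is 33.3% lower at 1 week, near the 31.6% of all genes, and 66.7% at 5 weeks, against 21.2%. Rrm2, the S-phase subunit of ribonucleotide reductase, gave log2 signals of 8.09, 7.85 and 8.69 on the 1-week control arrays, 6.74, 7.85 and 7.58 on the 1-week cold arrays, 8.70, 8.50 and 8.63 on the 5-week control arrays and 7.38, 7.45 and 8.29 on the 5-week cold arrays. The highest 1-week cold array was level with the lowest control, the 5-week cold arrays were below their controls, and both cold groups were spread widely. Its differences were -0.82 (SE 0.31, adjusted p = 0.0483) at 1 week and -0.90 (SE 0.31, adjusted p = 0.0431) at 5 weeks, and the 1-week call was kept in 6 of 24 settings, the 5-week call in 12. Rrm1, the large subunit, had log2 signals of 8.09, 8.00 and 8.37 on the 1-week control arrays, 7.92, 8.20 and 8.14 on the 1-week cold arrays, 8.07, 8.29 and 8.40 on the 5-week control arrays and 7.92, 7.85 and 7.89 on the 5-week cold arrays. Only the 5-week groups were apart. Rrm1 differed by -0.07 (SE 0.12, adjusted p = 0.665) at 1 week and fell by 0.37 on the log2 scale at 5 weeks (adjusted p = 0.0345); its second probe set rose at 1 week (0.87, adjusted p = 0.00348). Tyms, thymidylate synthase, was close to the filter, with log2 signals of 4.26, 4.21 and 4.28 on the 1-week control arrays, 4.36, 4.30 and 4.61 on the 1-week cold arrays, 4.10, 4.23 and 4.23 on the 5-week control arrays and 4.40, 4.31 and 4.32 on the 5-week cold arrays. Its cold arrays were all above the controls at both times, by 0.17 (SE 0.09, adjusted p = 0.133) and 0.15 (SE 0.09, adjusted p = 0.217), which did not pass.

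Among the 8 genes of G1 and S control, 2 fell and 2 rose at 1 week (25% each way), and 5 fell at 5 weeks (62.5%). Of all genes tested, 31.6% fell and 17.9% rose at 1 week, and 21.2% fell and 15% rose at 5 weeks. The share of this class that fell at 1 week was thus below that of all genes. Ccnd1, cyclin D1, gave log2 signals of 9.99, 9.80 and 9.87 on the 1-week control arrays, 9.65, 9.94 and 9.87 on the 1-week cold arrays, 9.84, 9.91 and 10.004 on the 5-week control arrays and 9.25, 9.42 and 9.37 on the 5-week cold arrays. All 5-week cold arrays were below the other 9, and the 1-week groups overlapped. Its brightest probe set differed by -0.07 (SE 0.10, adjusted p = 0.567) at 1 week and fell 1.48-fold at 5 weeks (-0.57 (SE 0.10, adjusted p = 0.00111)). A second Ccnd1 set fell at both times (-0.65, adjusted p = 0.00069, and -0.39, adjusted p = 0.0164). Ccnd2, cyclin D2, had log2 signals of 11.12, 11.08 and 11.04 on the 1-week control arrays, 10.51, 10.85 and 10.68 on the 1-week cold arrays, 10.63, 10.85 and 10.94 on the 5-week control arrays and 9.71, 10.08 and 10.001 on the 5-week cold arrays. Both cold groups lay below their controls, and the 5-week cold arrays were the lowest of the 12. Ccnd2 changed by -0.40 (SE 0.12, adjusted p = 0.0194) at 1 week and -0.87 (SE 0.12, adjusted p = 0.000327) at 5 weeks, 1.83-fold lower. Its dimmer probe sets disagreed at 1 week: those at -0.45 and -0.54 passed, and those at -0.16, -0.21, 0.025 and 0.85 did not. Every Ccnd2 set fell at 5 weeks. The 1-week call was kept in 19 of 24 settings and lost with probe sets averaged.

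Ccnd3, cyclin D3, had log2 signals of 9.29, 8.92 and 8.36 on the 1-week control arrays, 9.38, 9.73 and 9.52 on the 1-week cold arrays, 9.80, 9.82 and 9.57 on the 5-week control arrays and 8.86, 9.09 and 8.67 on the 5-week cold arrays. Its cold arrays were above the controls at 1 week and below them at 5 weeks, and the 5-week controls were above those of 1 week. The differences were 0.68 (SE 0.20, adjusted p = 0.0156) at 1 week and -0.86 (SE 0.20, adjusted p = 0.00686) at 5 weeks. Ccnd3 was the member whose probe sets were called in opposite directions at 1 week: a dimmer set fell (-1.19, adjusted p = 0.00245), and at 5 weeks both fell. Cdk4, the kinase partner of the D cyclins, gave log2 signals of 8.95, 8.96 and 8.93 on the 1-week control arrays, 8.52, 8.81 and 8.30 on the 1-week cold arrays, 9.41, 9.24 and 9.14 on the 5-week control arrays and 8.54, 8.72 and 8.68 on the 5-week cold arrays. Cold was below control at both times. Cdk4 fell by 0.41 and 0.62 on the log2 scale (adjusted p = 0.0173 and 0.00263), and all 3 of its probe sets fell at 5 weeks. Ccne1, cyclin E1, had log2 signals of 6.32, 6.19 and 6.62 on the 1-week control arrays, 7.14, 7.49 and 7.35 on the 1-week cold arrays, 6.60, 6.30 and 7.15 on the 5-week control arrays and 6.34, 6.86 and 7.27 on the 5-week cold arrays. The 1-week cold arrays were above the 1-week controls, and the 5-week groups overlapped widely. Ccne1 rose 1.93-fold at 1 week (0.95 (SE 0.25, adjusted p = 0.00829)) and differed by 0.14 (SE 0.25, adjusted p = 0.691) at 5 weeks; its second probe set differed by 0.25 at 1 week (adjusted p = 0.075). Cdk2, the partner of cyclin E, differed by -0.41 (SE 0.19, adjusted p = 0.0902) at 1 week and -0.58 (SE 0.19, adjusted p = 0.0319) at 5 weeks, a fall at the later time. E2f1, a factor released by these kinases, and Ccne2 passed at neither time, with 5-week differences of 0.12 and 0.04.

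The 23 tested genes of mitosis fell in 7 cases at 1 week and 13 at 5 weeks, and none rose in either; that is 30.4% lower at 1 week, near the 31.6% of all genes, and 56.5% at 5 weeks, against 21.2%. At 1 week 8 and at 5 weeks 14 were lower at an unadjusted limma p under 0.05, and none higher. The 8 genes of mitotic entry and exit passed in 0 cases at 1 week (limma; 1 lower at an unadjusted p under 0.05) and in 5 at 5 weeks. Cdk1, the mitotic kinase whose promoter holds both E2F and CHR words, had log2 signals of 7.004, 6.59 and 7.37 on the 1-week control arrays, 6.17, 7.09 and 6.94 on the 1-week cold arrays, 7.30, 7.35 and 7.55 on the 5-week control arrays and 6.31, 6.15 and 6.62 on the 5-week cold arrays. At 1 week the groups overlapped, with cold replicate 1 the lowest; at 5 weeks they were apart. Cdk1 differed by -0.26 (SE 0.24, adjusted p = 0.4) at 1 week and fell 2.06-fold at 5 weeks (-1.04 (SE 0.24, adjusted p = 0.00658)). Ccna2, cyclin A2, gave log2 signals of 6.58, 6.63 and 7.35 on the 1-week control arrays, 6.60, 6.87 and 6.73 on the 1-week cold arrays, 7.26, 7.33 and 7.59 on the 5-week control arrays and 5.68, 6.47 and 6.21 on the 5-week cold arrays. The 5-week groups were separated, and 1-week cold arrays lay within the range of their controls. Ccna2 differed by -0.12 (SE 0.23, adjusted p = 0.688) at 1 week and by -1.28 (SE 0.23, adjusted p = 0.00132) at 5 weeks, 2.42-fold lower, and its second probe set gave 0.05 and -0.84. Ube2c, the enzyme that passes ubiquitin to the anaphase-promoting complex, had log2 signals of 7.72, 7.40 and 8.28 on the 1-week control arrays, 7.29, 7.79 and 7.23 on the 1-week cold arrays, 8.12, 7.89 and 7.79 on the 5-week control arrays and 6.92, 6.76 and 6.60 on the 5-week cold arrays. Its 5-week cold arrays were below all 9 others. Ube2c differed by -0.36 (SE 0.21, adjusted p = 0.176) at 1 week and fell 2.25-fold at 5 weeks (-1.17 (SE 0.21, adjusted p = 0.00151)).

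Cdc20, an activator of that complex, gave log2 signals of 7.14, 7.07 and 7.59 on the 1-week control arrays, 6.49, 7.32 and 6.71 on the 1-week cold arrays, 7.94, 7.51 and 7.75 on the 5-week control arrays and 7.003, 7.19 and 6.97 on the 5-week cold arrays. Cold replicate 2 lay among the 1-week controls, and at 5 weeks the groups did not overlap. The differences of Cdc20 were -0.43 (SE 0.21, adjusted p = 0.106) and -0.68 (SE 0.21, adjusted p = 0.0237), and only the second passed. Ccnb2, cyclin B2, had log2 signals of 5.95, 5.87 and 6.60 on the 1-week control arrays, 4.71, 5.91 and 5.67 on the 1-week cold arrays, 6.24, 6.29 and 6.82 on the 5-week control arrays and 5.81, 5.74 and 6.07 on the 5-week cold arrays. Spread inside the groups was wide at 1 week, and at 5 weeks all cold arrays were below all controls. Ccnb2 passed at neither time (-0.71 (SE 0.29, adjusted p = 0.0647) and -0.58 (SE 0.29, adjusted p = 0.152)). Aurka, a spindle pole kinase, fell at 5 weeks (-0.47 (SE 0.17, adjusted p = 0.0479)), kept in 11 of 24 settings. Plk1, a kinase of mitotic entry, and Foxm1, a transcription factor of mitotic genes, were dim (12-array ranges 4.65 to 4.97 and 3.38 to 5.12) and passed at neither time.

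Of the 6 tested genes of the chromosomal passenger complex and the spindle checkpoint, Birc5 and Bub1 fell at both times and Cdca8 at 5 weeks. At 1 week that is 33.3% lower, near the 31.6% of all genes, and at 5 weeks 50%, against 21.2%. Birc5, survivin, had log2 signals of 6.88, 6.93 and 7.76 on the 1-week control arrays, 6.03, 6.32 and 6.50 on the 1-week cold arrays, 7.22, 7.46 and 7.31 on the 5-week control arrays and 5.97, 5.92 and 6.23 on the 5-week cold arrays. Both cold groups lay below all 6 controls. Birc5 fell 1.88-fold at 1 week (-0.91 (SE 0.21, adjusted p = 0.00447)) and 2.44-fold at 5 weeks (-1.29 (SE 0.21, adjusted p = 0.000836)), with no overlap at either time. Bub1, a checkpoint kinase, gave log2 signals of 4.09, 3.57 and 4.56 on the 1-week control arrays, 3.42, 3.36 and 3.14 on the 1-week cold arrays, 4.53, 4.47 and 4.57 on the 5-week control arrays and 3.72, 3.49 and 3.51 on the 5-week cold arrays. All 6 cold arrays were below log2 4, the level of the filter, so the folds are bounds; 2 of the 3 controls of 1 week were above it. Bub1 was at least 1.05-fold lower at 1 week and at least 1.44-fold lower at 5 weeks (fitted adjusted p = 0.00737 and 0.0032). Aurkb, the kinase of the passenger complex, had log2 signals of 5.70, 5.67 and 6.63 on the 1-week control arrays, 5.33, 5.37 and 5.85 on the 1-week cold arrays, 5.93, 6.88 and 6.34 on the 5-week control arrays and 5.85, 5.91 and 5.87 on the 5-week cold arrays. The groups overlapped at 1 week and at 5 weeks were separated by a narrow gap. Its differences of -0.48 (SE 0.28, adjusted p = 0.165) and -0.51 (SE 0.28, adjusted p = 0.17) did not pass. Cdca8, borealin, differed by 0.24 (SE 0.16, adjusted p = 0.222) at 1 week and -0.48 (SE 0.16, adjusted p = 0.0341) at 5 weeks. A dimmer Cdca8 probe set gave 0.15 and 0.13, and another gave -0.85 and -0.96. Neither of these sets passed at either time. Bub1b and Mad2l1, both of the checkpoint, differed by 0.12 and -0.07 at 5 weeks and passed at neither time.

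Of the 7 tested genes of the spindle, kinetochore and cytokinesis, Cenpe, Nusap1 and Kif11 fell at 1 week, and Kif11, Nusap1, Prc1 and Tpx2 at 5 weeks. The shares lower, 42.9% and 57.1%, stood beside 31.6% and 21.2% of all genes. Cenpe, a kinetochore motor, had log2 signals of 4.49, 4.79 and 4.42 on the 1-week control arrays, 4.11, 3.51 and 3.55 on the 1-week cold arrays, 4.75, 4.25 and 4.09 on the 5-week control arrays and 4.55, 4.29 and 4.21 on the 5-week cold arrays. The 1-week cold arrays were below their controls, replicates 2 and 3 below log2 4, and at 5 weeks the groups overlapped. Cenpe was at least 1.44-fold lower at 1 week, with 1 of 3 cold arrays above that level (fitted adjusted p = 0.00489), and differed by -0.02 (SE 0.20, adjusted p = 0.957) at 5 weeks. Nusap1, which bundles spindle microtubules, gave log2 signals of 5.87, 5.81 and 6.84 on the 1-week control arrays, 5.21, 4.80 and 5.88 on the 1-week cold arrays, 6.82, 6.71 and 6.95 on the 5-week control arrays and 6.04, 5.35 and 5.90 on the 5-week cold arrays. Cold replicate 3 overlapped the 1-week controls, of which replicate 3 was the highest, and the 5-week groups were apart. Nusap1 changed by -0.88 (SE 0.31, adjusted p = 0.0363) at 1 week and -1.07 (SE 0.31, adjusted p = 0.0204) at 5 weeks, kept in 13 and 19 of 24 settings. Kif11, the motor that separates spindle poles, had log2 signals of 5.68, 5.59 and 6.17 on the 1-week control arrays, 5.21, 5.67 and 4.67 on the 1-week cold arrays, 6.18, 6.00 and 6.23 on the 5-week control arrays and 5.54, 5.41 and 5.11 on the 5-week cold arrays. Groups overlapped at 1 week and not at 5. Kif11 changed by -0.63 (SE 0.23, adjusted p = 0.0405) and -0.78 (SE 0.23, adjusted p = 0.0207), kept in 7 and 17 of 24 settings. A second, dimmer Kif11 probe set gave 0.70 and 0.22, which did not pass. Prc1, a cytokinesis protein, was at least 1.60-fold lower at 5 weeks, with 1 of 3 cold arrays above log2 4 (fitted adjusted p = 0.0184) and overlapping groups, and its other probe set gave 0.14. Tpx2, a spindle assembly factor, changed by -0.53 (SE 0.15, adjusted p = 0.0191) at 5 weeks, and Cenpa, the centromeric histone, by -0.41 (SE 0.19, adjusted p = 0.109), which did not pass. Kif23, a cytokinesis motor, differed by -0.02 and 0.05.

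The widely used proliferation markers Mki67 and Top2a both fell at 1 week. Mki67, which coats mitotic chromosomes, had log2 signals of 7.73, 7.70 and 8.48 on the 1-week control arrays, 6.94, 6.82 and 7.03 on the 1-week cold arrays, 7.97, 8.14 and 8.07 on the 5-week control arrays and 7.48, 7.55 and 7.77 on the 5-week cold arrays. The 1-week cold arrays were the lowest of the 12, and the 5-week cold arrays lay between them and the 5-week controls. Mki67 was 2.05-fold lower at 1 week (-1.04 (SE 0.18, adjusted p = 0.000706)), kept in 24 of 24 settings, and differed by -0.46 (SE 0.18, adjusted p = 0.0639) at 5 weeks with no overlap. Top2a, the topoisomerase that untangles chromosomes, gave log2 signals of 7.11, 6.96 and 7.61 on the 1-week control arrays, 5.67, 6.52 and 6.28 on the 1-week cold arrays, 7.75, 7.27 and 7.23 on the 5-week control arrays and 6.14, 6.62 and 6.73 on the 5-week cold arrays. Cold lay below control at both times. Top2a fell 2.10-fold at 1 week (-1.07 (SE 0.25, adjusted p = 0.00439)) and 1.89-fold at 5 weeks (-0.92 (SE 0.25, adjusted p = 0.0142)). Its second, dimmer probe set gave -0.15 and -0.29, which did not pass.

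**Figure D4:**
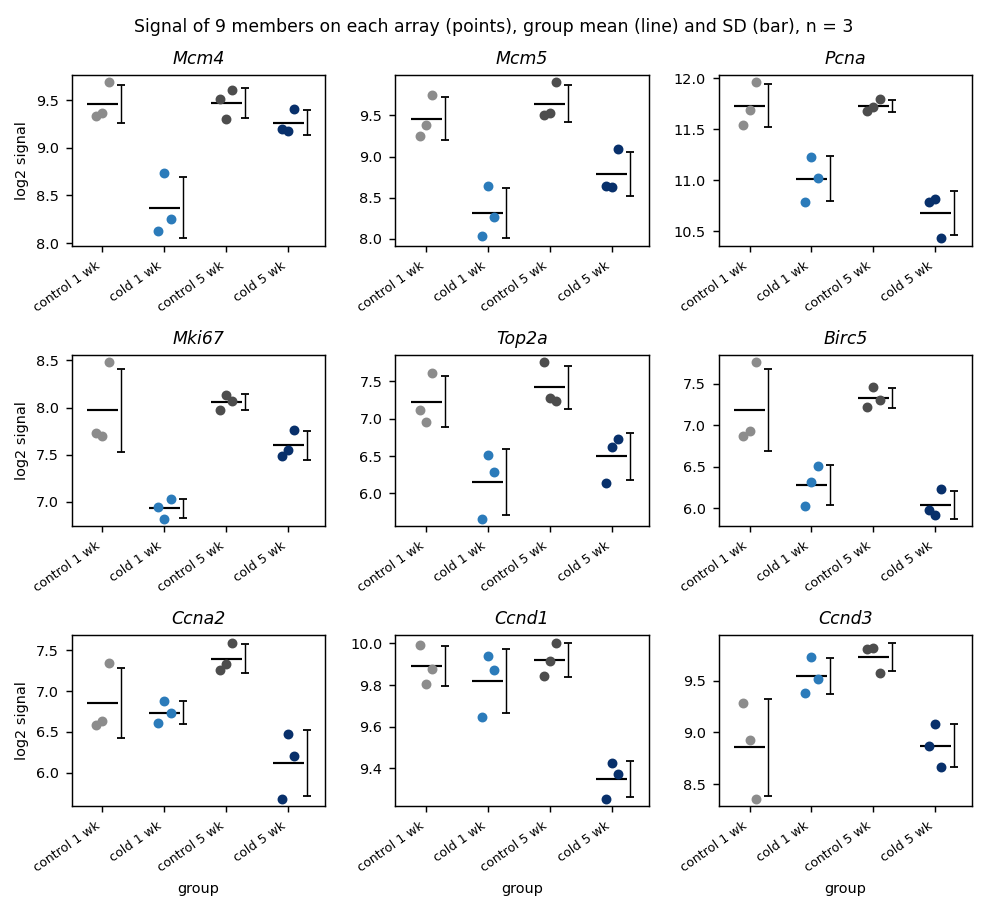
Log2 signal (y axes, which do not start at 0) of 9 members on each array (points) in the 4 groups (x axes), with the group mean (line) and SD (bar), n = 3. Mcm4 and Mki67 are lowest in the 1-week cold group, Ccna2 and Ccnd1 in the 5-week cold group, Pcna, Mcm5, Top2a and Birc5 are below control in both, and Ccnd3 is above control at 1 week and below it at 5.

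The difference between the 5-week and the 1-week cold effect was tested as an interaction, which 5 of the 43 members passed (11.6%, against 19.8% of all genes, 11.5% upward and 8.38% downward). The interaction was 0.88 for Mcm4 (SE 0.23, adjusted p = 0.0232), whose fall was smaller at 5 weeks than at 1. It was negative for Ccnd3 (-1.54, SE 0.29, adjusted p = 0.00751) and Ccna2 (-1.16, SE 0.32, adjusted p = 0.0293). Negative values were also found for Ccnd1 (-0.50, SE 0.14, adjusted p = 0.0301) and Cdca8 (-0.72, SE 0.22, adjusted p = 0.0428). For Mki67, Mcm7, Cenpe, Cdk1 and Ube2c, which passed at a single time, the difference between the times did not pass, which does not show that the effects were alike. The 5 calls did not hold for all probe sets: with probe sets averaged 3 members passed, of which 1 was shared, Ccna2. With the Gapdh difference as a covariate, or without control replicates 2 and 3 of 1 week, 0 passed in limma, with 6 and 7 at an unadjusted p under 0.05.

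Between the weeks, 1 member differed in the controls (2.33%, against 2.55% of all genes, 1.28% higher and 1.27% lower at 5 weeks): Ccnd3 was higher at 5 weeks by 0.87 (SE 0.20, adjusted p = 0.0479). Within the cold, 8 members differed (18.6%, against 27.5%), 4 in each direction (15.4% and 12% of all genes were higher and lower). Mcm4 was higher at 5 weeks than at 1 by 0.89 (SE 0.16, adjusted p = 0.00308), Mki67 by 0.67 (SE 0.18, adjusted p = 0.0187), Mcm7 by 0.63 and Cenpe by 0.63. Lower at 5 weeks were Ccnd2, with a difference of -0.75 (SE 0.12, adjusted p = 0.00213), and Ccnd1, with -0.47 (SE 0.10, adjusted p = 0.00601). For Ccnd3 and Ube2c the differences were -0.67 and -0.67. These comparisons share arrays with the cold effects above and are the same measurements set another way.

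Other genes of the cycle, from lists outside the 47, were fitted in the same way. Of 37 further replication genes tested, 10 fell and 3 rose at 1 week and 9 fell and 3 rose at 5 weeks, with medians of -0.20 and -0.21. Rpa1, of the single-strand binding complex, changed by -0.54 (adjusted p = 0.00059), the licensing factor Cdt1 by -1.02 (adjusted p = 0.000924) and the primase subunit Prim1 by -1.02 (adjusted p = 0.00122) at 1 week. At 5 weeks Rpa2 changed by -0.89, and the polymerase delta subunits Pold2 and Pold3 by -0.76 and -0.75. Of 34 further mitosis genes, 9 fell and 1 rose at each time (26.5% lower), with medians of -0.10 and -0.11. The phosphatase Cdc25b, which activates Cdk1, changed by -0.88 and -1.12, and Cks1b, a Cdk subunit, by -0.66 and -0.80, at 1 and 5 weeks. Both lists were near the share of all genes that fell, 31.6% and 21.2%.

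Inhibitors of the cycle and pocket proteins were listed together with genes that act on them. Of 21 such genes tested, 11 fell and 3 rose at 1 week, 52.4% and 14.3%, against 31.6% and 17.9% of all genes. At 5 weeks 11 fell and 0 rose, 52.4% lower against 21.2%, while 15% of all genes rose. Another 2 were higher at 5 weeks at an unadjusted limma p under 0.05. Differences ran from -1.62 to 0.87 at 1 week and from -1.39 to 0.55 at 5 weeks. Rbl1, a pocket protein that binds E2F, changed by -1.62 (adjusted p = 8.14e-05), Mdm2, the ligase that marks p53 for breakdown and so opposes restraint, by -0.51 and the Cdk4 inhibitor Cdkn2b by -0.89 at 1 week. At 5 weeks Gadd45a changed by -1.30 (adjusted p = 2.94e-05), the Cdk4 inhibitor Cdkn2d by -1.01 and the antiproliferative gene Btg2 by -1.25. Of 8 tested further E2f factors and G1 regulators, 1 fell and 1 rose at each time, 12.5% each way and below the shares of all genes. In that list Myc, a driver of cell growth, changed by -0.82 and -0.97, the lowest difference at each time. The highest differences in the list were 0.53 and 0.30.

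Lymphocyte, macrophage and progenitor markers fell at the same times as the members, and endothelial markers did not follow them at 1 week. Of all genes tested, 31.6% fell and 17.9% rose at 1 week and 21.2% fell and 15% rose at 5 weeks. Lymphocyte markers fell in 14 of 14 cases at 1 week and 13 of 14 at 5 weeks (100% and 92.9%); their mean log2 signal was 9.48 to 10.18 on the 1-week controls, 8.70 to 9.19 on the 1-week cold arrays, 9.88 to 9.94 on the 5-week controls and 8.90 to 9.04 on the 5-week cold arrays. The T cell coreceptor Cd4 changed by -0.90 at 1 week and -1.31 at 5 weeks. Macrophage markers fell in 12 of 16 cases at 1 week, with 1 higher, and in 13 of 16 at 5 weeks (75% and 81.2% lower), with group ranges of 9.95 to 10.06, 9.41 to 9.58, 10.17 to 10.21 and 9.28 to 9.51 in the same order. Adipose progenitor and fibroblast markers fell in 10 of 11 cases at 1 week and 9 of 11 at 5 weeks (90.9% and 81.8% lower; 11.37 to 11.59, 10.65 to 10.86, 11.12 to 11.29 and 10.64 to 10.75). Every lymphocyte and macrophage marker with a probe set was above the filter, as was each progenitor marker except Dlk1. Of 9 myeloid precursor and neutrophil markers 3 fell at 1 week, and 4 fell and 1 rose at 5; Mpo, Elane, Ltf, Mmp8 and Ms4a3 were below the filter. Of 12 endothelial markers 4 rose and 1 fell at 1 week, and 1 rose and 3 fell at 5 weeks (medians 0.18 and -0.14). Skeletal muscle markers passed upward in 2 of 13 cases at 1 week and fell in 9 of 13 at 5 weeks, with the levels given above. The part of these cells, of RNA integrity and of muscle RNA in the members' falls was not tested.

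**Figure D5:**
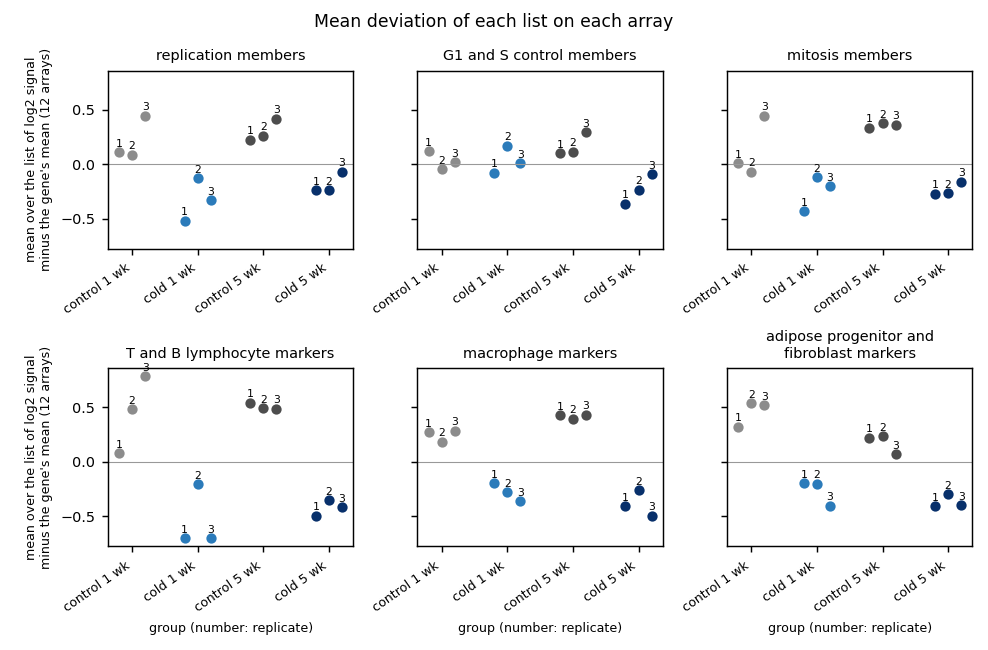
Mean over each list of log2 signal minus the gene's mean over the 12 arrays (y axis), on each array (points, replicate number above) in the 4 groups (x axis), for 3 classes of members (top) and 3 cell type marker lists (bottom). Replication and mitosis members and the 3 marker lists are higher on the 5-week controls than on the 5-week cold arrays, and lymphocyte markers are lowest on cold replicates 1 and 3 of 1 week, which also have the lowest replication means.

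Array by array, the members' mean deviation from each gene's 12-array mean was 0.06, -0.02 and 0.37 on the 1-week controls, -0.39, -0.07 and -0.20 on the 1-week cold arrays, 0.26, 0.29 and 0.36 on the 5-week controls, and -0.28, -0.25 and -0.12 on the 5-week cold arrays. Cold lay below control at both times, by a narrow gap at 1 week, where control replicate 3 stood above the other controls and cold replicate 2, the array with muscle transcripts, stood highest of the cold. Without control replicate 3 of 1 week, 14 members passed at 1 week in place of 19, and the median over all 43 moved from -0.36 to -0.17. Mcm4, Mcm5 and Mki67 were the members whose 1-week call was kept in all 24 settings. At 5 weeks 7 calls (Mcm6, Pcna, Ccnd1, Ccnd2, Ccna2, Ube2c and Birc5) were lost in 1 setting alone, the beta-actin covariate.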

How the data were processed

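Affymetrix arrays of white adipose RNA gave log2 signals that the authors deposited as 1 table of 12 columns; the submitters' processing notes name GCRMA, with no version. Depth has no meaning for arrays, and 3 arrays a group limit the precision. Of 45101 probe sets, 34958 named 1 gene in the platform annotation, 932 several and 9211 none. Those naming 1 gene were kept when above log2 4 on at least 3 arrays, and the brightest by its 12-array mean stood for its gene. Group means of all 12 arrays were fitted with limma 3.58.1 in R 4.3.3, and p-values were Benjamini-Hochberg adjusted over 12855 genes at 0.05. The fit was tested on simulated data, where the share of false calls at 1 week came out above the nominal level in the draw made, so calls near the threshold are the least firm. Where a group's mean was below log2 4, the fold is a bound, with its arrays below that level set at it and the other group's mean as measured. A rule fixed with the design set whose array values were given, with the exceptions below. It covers up to 3 members with the smallest adjusted p in each role at 1 week. It also covers up to 3 in each direction at 5 weeks, in the interaction and between the weeks, plus Mki67, Top2a, Pcna, Cdk1 and Ccnd1. Of other lists, up to 3 genes were named. Array values are not printed for Bub1b and E2f1, which the rule covers as higher in the cold at 5 weeks. The same holds for Kif23 and Mcm2, covered as lower in the 5-week than in the 1-week controls. None of these differences passed the test. Mcm6, Cdc6 and the other members named with means or differences alone complete the account, and Cd4, Cdc25b, Cks1b and Myc fell under the same rule. The members and lists were chosen with earlier results of these data known. Same-numbered replicates did not deviate together (correlations of -0.027 to 0.074), so they were not paired. Alternatives covered scaling, filters, probe set choice, the arrays fitted, RNA integrity, array weights, a replicate block and each array left out. RefSeq promoter windows matched 37 of 47 members.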

Additional observations from a re-analysis of the deposited data

Results flagged for a closer look

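For 5 members (11.6%, against 19.8% of all genes) the cold effect differed between the times in the interaction test (limma, adjusted over all genes), 5-week effect minus 1-week effect. Mcm4 differed by 0.88 (SE 0.23, adjusted p = 0.0232): cold lay below control on all arrays at 1 week, and the groups overlapped at 5 weeks. Ccnd3 differed by -1.54 (SE 0.29, adjusted p = 0.00751), with all cold arrays above control at 1 week and below at 5 weeks on its brightest probe set. Ccna2 differed by -1.16 (SE 0.32, adjusted p = 0.0293) and Ccnd1 by -0.50 (SE 0.14, adjusted p = 0.0301), each with overlapping groups at 1 week on its brightest probe set. A second Ccnd1 set went the other way, with a larger fall at 1 week (-0.65) than at 5 weeks (-0.39). The third Ccnd1 set gave 0.14 and -0.67, neither of which passed. Cdca8 differed by -0.72 (SE 0.22, adjusted p = 0.0428). On its brightest probe set the 1-week cold arrays lay above the controls, the lowest by a narrow margin, and the 5-week cold arrays below them. Its dimmer sets did not change sign between the times (0.15 and 0.13 for one, -0.85 and -0.96 for the other). Over 23 other settings the calls were kept in 15 for Mcm4, 18 for Ccnd3, 11 each for Ccna2 and Ccnd1, and 7 for Cdca8. With probe sets averaged, Ccna2 alone of the 5 passed.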

How the results depend on the processing

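Members were recounted as called at 1 week (19), at 5 weeks (24), in the interaction (5), between control weeks (1) and between cold weeks (8). Without a filter on dim probe sets the last 3 counts were 3, 0 and 4. With probe sets averaged the interaction gave 3 and the control weeks 0. The Gapdh covariate gave 5 at 1 week (Mcm4, Mcm5, Pcna and Mki67 lower, Ccne1 higher), 0 in the interaction, 0 between control weeks and 3 between cold weeks. Leaving out control replicates 2 and 3 of 1 week, with 1 array left in that group, gave 5 at 1 week and 0 in the interaction and between control weeks. Array weights gave 8 in the interaction and 3 between control weeks. In settings chosen after seeing the data, averaging the 5-week controls into 1 sample gave 7 at 5 weeks, 0 in the interaction, 0 between control weeks and 5 between cold weeks; the beta-actin covariate gave 0 at 5 weeks, in the interaction and between both pairs of weeks. Counts of 0 in the interaction (limma) stood beside 3 to 7 members at an unadjusted p under 0.05, those between control weeks beside 1 to 12, and that between cold weeks beside 3. All genes lost calls in the covariate fits too. With the Gapdh covariate 23.6% of all genes were called at 1 week, against 49.5% in the main fit. With the beta-actin covariate 6.18% were called at 5 weeks, against 36.2%. In the interaction the 2 covariates left 0.0233% and 0% of all genes, against 19.8%. The cause of these shifts was not tested. Averaged over probe sets, the 1-week difference reversed for Rrm1 (0.40), Ccnd3 (-0.25) and Kif11 (0.037); centring adds 1 amount to every gene's difference and by that construction turned the sign of Bub1b (0.22) and Kif23 (0.20). Centring raised the share of calls that were higher, over all genes, from 36.2% to 63.9% at 1 week and from 41.4% to 66.6% at 5 weeks. The fit with the replicate number as a block gave 18, 24, 6, 1 and 9. Leaving out 1 array gave 14 to 20 at 1 week, 16 to 25 at 5 weeks, 1 to 7 in the interaction, 0 to 1 between control weeks and 4 to 10 between cold weeks. The interaction fell to 1 without 5-week control replicate 2, to 2 without 1-week control replicate 2 or 5-week cold replicate 1 or 3, and to 3 without 1-week cold replicate 3 or 5-week control replicate 3. Cold weeks fell to 4 without 5-week cold replicate 3 and to 5 without 1-week cold replicate 2 or 3. Among fits that leave out 1 array, the Ccnd3 call between control weeks was kept only without 1-week control replicate 1, 1-week cold replicate 2 or 5-week cold replicate 3. With the compared groups alone (13 and 25 calls), the interaction and week comparisons have no fit. Signals near log2 4 limit Bub1, Cenpe, Tyms and Prc1.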

Other observations

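Members without a test had these signals. Tk1, thymidine kinase of S phase, had 1 probe set spanning 2.97 to 4.38 over the 12 arrays, with group means of 3.68 and 3.55 in control and cold at 1 week and 4.06 and 3.16 at 5 weeks. Ttk, a checkpoint kinase, had 2 probe sets, both below log2 4 on every array. Kif20a, a cytokinesis motor, ranged from 3.61 to 4.12.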
